A study of Bos taurus with 12 samples.

Results

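The 5 transcripts followed here encode the proteins that carry a bovine ovarian follicle from cholesterol to androgen, together with 1 enzyme of the oestrogen step: STAR, CYP11A1, HSD3B1, CYP17A1 and HSD17B1. They were taken by symbol from the platform's table of probe sets and genes, and each symbol had 1 probe set, so that 5 of the 24016 probe sets other than controls were followed, or 5 of 9155 named genes. All 5 were bright enough to be tested.

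The samples were granulosa cells, the epithelium inside the follicle, and theca cells, the vascular layer around it. They came from untreated young heifers that were cycling and not pregnant. Follicles of at most 5 mm were called small, those above 10 mm large and those between medium. The ovaries were in the follicular stage, with no corpus luteum. Each of the 6 groups had 2 arrays, 12 in all, and each RNA was a pool of 20 to 40 follicles of 1 size, so that the spread between animals is hidden and a p-value measures the spread between pools. The submitters give 6 to 10 animals and 20 to 40 ovaries behind each replicate. Markers of other cells were present in theca, where summed signals were 15365 to 21982 for 6 stroma markers, 10514 to 20430 for 5 smooth muscle markers and 294 to 1061 for 6 endothelial markers.

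Steroid synthesis starts when cholesterol is moved into the mitochondrion and cut to pregnenolone, which is then turned into progesterone. In the follicle the work is divided: theca cells, under luteinising hormone, go on to make androgens, and granulosa cells, under follicle-stimulating hormone, turn those androgens into oestrogens. Progesterone made by granulosa cells can also pass to the theca. The division rests on which enzymes each layer expresses, and it was asked here how the transcripts of these steps stand in the layers and how they change as follicles grow.

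Signals are linear array intensities scaled by the authors. Differences are on the scale log2(signal + 16), which understates the change of dim transcripts, and are given ± the standard error of a limma model over all 12 arrays and 17478 tested probe sets. A call needed an adjusted p (Benjamini-Hochberg) under 0.05. The level of 1 gene is not set against that of another, since probe sets differ in brightness for reasons other than abundance.

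A pair of arrays stood apart. On theca small replicate 1 the ratio of GAPDH signal near the 3' end to that near the 5' end was 8.36, and elsewhere it lay between 0.984 and 1.30. The median signal of granulosa large replicate 1 was 48.8, above the 33.7 to 39.2 of the rest, and its actin ratio was 21.0. Summed theca markers set the labelled layers apart, whereas summed granulosa markers overlapped between them. The summed signal of 5 theca markers other than the followed genes (INSL3, LHCGR, APOD, TCF21 and NR2F2) was 14910 to 23519 on theca arrays and 682 to 1658 on granulosa arrays. The summed signal of 8 granulosa markers was 11215 to 16390 on granulosa arrays, 5228 to 8367 on theca arrays of small and medium follicles and 8671 to 12729 on those of large follicles. Much of it came from GJA1, at 5237 to 6295 in granulosa and 4408 to 6326 in theca. KRT18, KRT8 and CDH2 were higher on every granulosa array than on any theca array, and the other markers of that list overlapped. No marker of either list was at 0 on any array. The same held for red blood cell and oocyte markers, so it does not show that a marker was detected. KRT8 was at 0.6 on theca medium replicate 2 and LHCGR at 3.1 on granulosa small replicate 1. Summed signals of 8 leukocyte markers were 3856 and 11714 in large granulosa against 370 to 1066 in small and medium granulosa. The part of these shifts in the results below was not tested, and in pooled tissue fewer cells of a type and less RNA per cell cannot be told apart.

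CYP17A1 and HSD17B1 differed between the layers in opposite directions. STAR, CYP11A1 and HSD3B1 gave no called difference, with 95% intervals over all sizes that covered 0. The layers did not overlap in CYP17A1, as held for 10.2% of all tested probe sets, and it was called in every size. They overlapped in HSD17B1, which was called over all sizes and in large follicles only. Over all sizes 2 of the 5 transcripts differed, CYP17A1 lower and HSD17B1 higher in granulosa, where 24.3% of all tested probe sets did (38.3% at an unadjusted p under 0.05, which the same 2 of 5 reached). None of the 5 was called between follicle sizes in either layer.

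**Figure D1:**
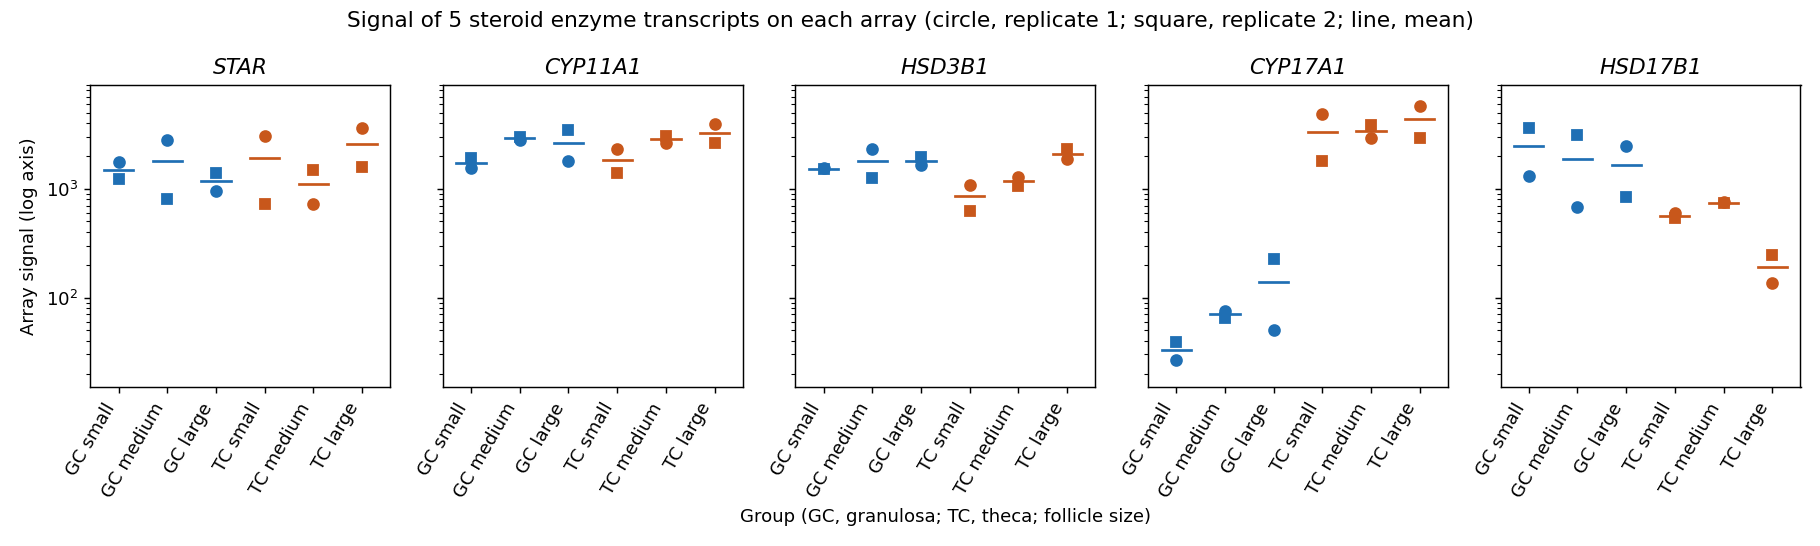
Array signal (log axis) of the 5 transcripts on the 12 arrays, by layer and follicle size; circles are replicate 1, squares replicate 2 and lines the mean of the 2. CYP17A1 lies at 26.5 to 228 in granulosa and 1786 to 5782 in theca. HSD17B1 is lowest in large theca, and granulosa medium replicate 1 reaches into its theca range. The other 3 transcripts overlap between the layers too.

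STAR brings cholesterol to the inner mitochondrial membrane, the step at which acute hormonal stimulation acts. Its signals in granulosa were 1775 and 1226 in small, 2782 and 811 in medium and 949 and 1391 in large follicles, replicate 1 before replicate 2. In theca they were 3066 and 730 in small, 732 and 1481 in medium and 3599 and 1592 in large follicles. The layers overlapped in small and medium follicles and not in large ones, and the arrays of 1 group differed by up to 4.2-fold, in small theca. Ordered by mean log2 level, the groups ran from large theca (11.24 ± 0.83, SD, n = 2) over medium granulosa, small theca, small granulosa and large granulosa to medium theca (10.05 ± 0.71), and each neighbour overlapped the next.

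The layer difference of STAR over all sizes, granulosa minus theca, was -0.18 ± 0.39 (95% interval -1.01 to 0.65, limma adjusted p = 0.758). Without the 2 arrays that stood apart it was 0.25. By size it was -0.02 (small), 0.52 (medium) and -1.05 (large), each with a standard error of 0.67. In large follicles the 2 granulosa arrays lay below the 2 theca arrays, as the arrays of 54.9% of all tested probe sets were apart in either direction, but the difference was not called (limma adjusted p = 0.394). In small follicles the difference was 1.0 without theca small replicate 1 and -1.05 without theca small replicate 2, so that 1 array decided its sign.

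CYP11A1 cuts the side chain of cholesterol and gives pregnenolone, the precursor of all steroids. Granulosa gave 1560 and 1916 in small, 2824 and 2982 in medium and 1793 and 3502 in large follicles. Theca gave 2304 and 1391 in small, 2653 and 3068 in medium and 3903 and 2625 in large follicles. Small follicles had the lowest mean in both layers, and the layers overlapped in every size. The order of mean levels was large theca (11.65 ± 0.40, SD, n = 2), medium granulosa, medium theca, large granulosa, small theca and small granulosa (10.77 ± 0.21), with overlap at each step.

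The layers differed in CYP11A1 by -0.13 ± 0.22 over all sizes (95% interval -0.60 to 0.35, limma adjusted p = 0.712), and by -0.05, 0.02 and -0.35 in small, medium and large follicles (standard error 0.39 each). Medium minus small was 0.74 ± 0.39 in granulosa and 0.67 ± 0.39 in theca. In each layer the 2 medium arrays lay above the 2 small ones. Such a separation, in either direction, held for 26.7% of all tested probe sets in granulosa and 36.6% in theca. Neither difference was called (limma adjusted p = 1 and 0.827). Large minus small was 0.53 in granulosa and 0.83 ± 0.39 in theca (limma adjusted p = 0.493).

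HSD3B1 turns pregnenolone into progesterone and acts on the androgen precursors too. Granulosa gave 1561 and 1505 in small, 2300 and 1264 in medium and 1655 and 1959 in large follicles. Theca gave 1082 and 622 in small, 1289 and 1056 in medium and 1878 and 2325 in large follicles. In theca the arrays of large follicles were the highest and did not overlap those of medium or small follicles. Such a separation, in either direction, held for 39.7% and 40.8% of all tested probe sets. In granulosa the groups lay close together, with mean levels of 10.60, 10.75 and 10.83 (log2) from small to large follicles.

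Large minus small HSD3B1 was 1.33 ± 0.37 in theca (2.52-fold, 95% interval 0.54 to 2.13, unadjusted p = 0.00298 from limma), which did not pass the adjustment (limma adjusted p = 0.281). In granulosa it was 0.23 ± 0.37 (95% interval -0.57 to 1.03). The difference between these size changes, granulosa minus theca, was -1.10 ± 0.52 (limma adjusted p = 0.488) and was not called. HSD3B1 was higher on both granulosa arrays than on both theca arrays in small follicles, a separation that 49.5% of all tested probe sets had in either direction, with a difference of 0.89 ± 0.37 (limma adjusted p = 0.15). It differed by 0.54 in medium and -0.21 in large follicles, and by 0.41 ± 0.21 over all sizes (limma adjusted p = 0.181). The order of mean levels was large theca, large granulosa, medium granulosa, small granulosa, medium theca and small theca. The single step without overlap lay between small granulosa and medium theca.

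CYP17A1 is the hydroxylase and lyase that turns progestins into androgens. Theca gave 4863 and 1786 in small, 2936 and 3860 in medium and 5782 and 2941 in large follicles. Granulosa gave 26.5 and 39.2 in small, 75.8 and 65.1 in medium and 50.1 and 228 in large follicles. Every theca array exceeded every granulosa array, a separation that 10.2% of all tested probe sets had in either direction. Granulosa minus theca was -5.42 ± 0.33 over all sizes (42.8-fold, 95% interval -6.13 to -4.71, limma adjusted p = 9.24e-08). The granulosa signals lie near the 22.5 of the filter, and the difference was -5.76 with log2(signal + 1) and -4.72 with log2(signal + 64), the ends of its range over the alternatives run.

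The layer difference of CYP17A1 was called in each size, at -5.94 ± 0.57 in small follicles (limma adjusted p = 4.25e-05), where 8.95% of all tested probe sets were called, -5.29 ± 0.57 in medium follicles (limma adjusted p = 7.41e-05, against 5.8% of probe sets) and -5.03 ± 0.57 in large follicles (limma adjusted p = 0.000285, against 4.25%). Leaving out single arrays gave -6.65 to -5.22 in small, -5.49 to -5.10 in medium and -5.97 to -4.09 in large follicles, all called. Both ends of the last range came from the large granulosa pair, -4.09 without replicate 1 and -5.97 without replicate 2. In medium follicles it was the 1 called member of the 5, the 1 with an unadjusted p under 0.05 (18.2% of all tested probe sets) and the 1 without overlap (52.7% of all). Within theca the sizes overlapped and differed by 0.19 to 0.48, none called.

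Within granulosa the signal of CYP17A1 was lowest in small follicles, and neither the medium nor the large arrays overlapped the small ones, as held for 26.7% and 41.1% of all tested probe sets. Large minus small was 1.39 ± 0.57 (2.62-fold, 95% interval 0.16 to 2.62, limma adjusted p = 0.273) and was not called. It lay between 0.45 and 2.33 when single arrays were left out, the lower value without granulosa large replicate 2, which held 228 against 50.1 on its partner. Of the 5 theca markers 1 differed between large and small granulosa. It was APOD, a lipid carrier, which was lower in large (-2.05, limma adjusted p = 0.0146). That call was lost when granulosa large replicate 1 was left out. The other theca markers were not called. LHCGR gave 1.35 (3.1 and 9.8 in small, 41.4 and 39.8 in large). TCF21 gave 0.47, the peptide hormone INSL3 -0.16 and NR2F2 -0.61. All 8 leukocyte markers were higher in large granulosa, with a median difference of 3.67. Their summed signal was 11714 on granulosa large replicate 1 and 3856 on replicate 2. On the same arrays that of 6 endothelial markers was 300.1 and 107.3, and that of the 5 theca markers 1091 and 868.5. The sums of 5 smooth muscle markers (1882 and 5419) and 6 stroma markers (1866 and 2500) were higher on replicate 2. The part of these markers in the CYP17A1 signal was not tested. The order of mean CYP17A1 levels was large, medium and small theca, which overlapped, then large and medium granulosa, which overlapped, and small granulosa, with no overlap at either break.

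HSD17B1 turns the weak oestrogen oestrone into oestradiol and is known in human ovaries as an enzyme of granulosa cells. Granulosa gave 1302 and 3592 in small, 674 and 3113 in medium and 2459 and 834 in large follicles. Theca gave 593 and 540 in small, 749 and 733 in medium and 137 and 246 in large follicles. The arrays of a granulosa pair differed by 2.76 to 4.62-fold, whereas those of small and medium theca differed by 1.10 and 1.02-fold. Only granulosa medium replicate 1 reached down into the theca range. The order of mean levels was small (11.09 ± 1.03, SD, n = 2), medium and large granulosa, which overlapped, then medium, small and large theca (7.65 ± 0.55), with no overlap at any of these last steps.

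**Figure D2:**
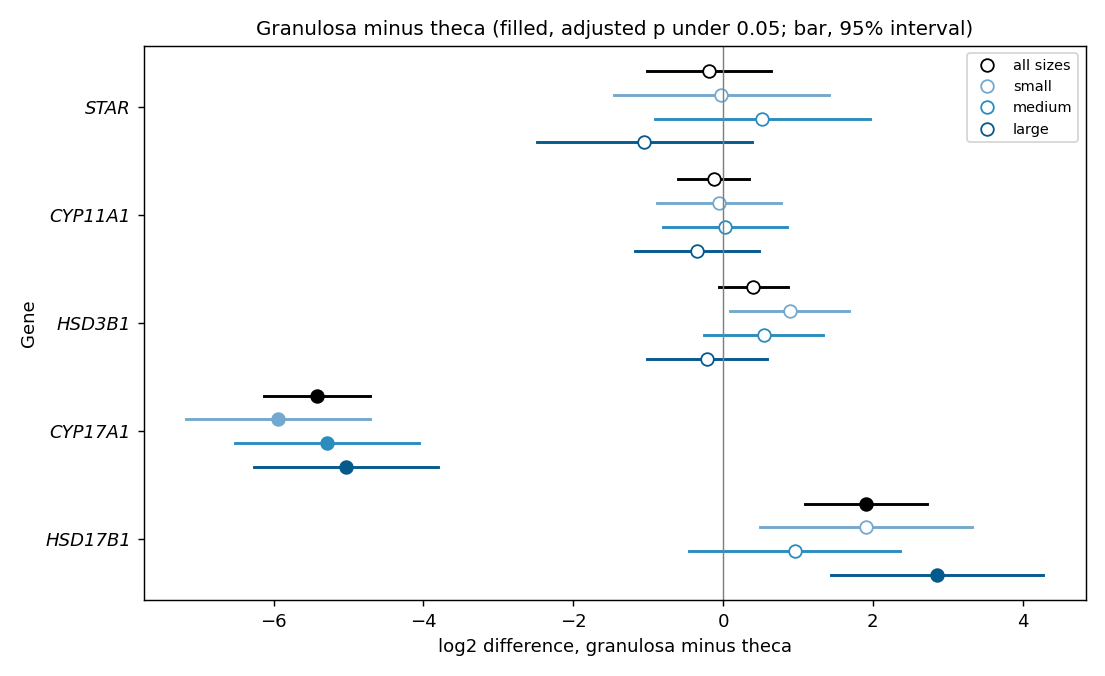
Log2 difference of granulosa minus theca with its 95% interval for the 5 transcripts, over all sizes and in small, medium and large follicles; filled points have a limma adjusted p under 0.05. CYP17A1 lies between -5.94 and -5.03, HSD17B1 between 0.96 and 2.85, and the other 3 have intervals that cover 0 except for HSD3B1 in small follicles.

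Granulosa exceeded theca in HSD17B1 by 1.91 ± 0.38 over all sizes (3.75-fold, 95% interval 1.09 to 2.72, limma adjusted p = 0.00275), and by 1.54 to 2.27 with any 1 array left out, always called. In large follicles the difference was called at 2.85 ± 0.66 (7.23-fold, limma adjusted p = 0.0274). The arrays did not overlap, as held for 54.9% of all tested probe sets in either direction. That call was lost without granulosa large replicate 1 (2.08, limma adjusted p = 0.21), without theca large replicate 1 (2.47, limma adjusted p = 0.195) and without theca large replicate 2 (3.24, limma adjusted p = 0.0785). In small follicles the difference was 1.91 ± 0.66 (limma adjusted p = 0.0869), without overlap, as held for 49.5% of all tested probe sets. It ran over 1.18 to 2.63 with single arrays left out, the lowest without granulosa small replicate 2. In medium follicles it was 0.96 ± 0.66 (limma adjusted p = 0.51). Of the 5 transcripts 2 were called in large follicles, against 4.25% of all tested probe sets, and 2 had an unadjusted p under 0.05, against 20.8%. In small follicles 1 was called, and 3 had an unadjusted p under 0.05, against 25.3% of all.

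Within theca HSD17B1 was lowest in large follicles, and neither large array overlapped the medium or small ones. Such a separation, in either direction, held for 39.7% and 40.8% of all tested probe sets. Large minus medium was -1.92 ± 0.66 (95% interval -3.33 to -0.50, unadjusted p = 0.0114 from limma) and large minus small -1.54 ± 0.66 (95% interval -2.95 to -0.12, unadjusted p = 0.0351 from limma). Neither passed the adjustment over all probe sets (limma adjusted p = 1 and 0.455). Aromatase, CYP19A1, which makes the oestrogens that HSD17B1 acts on, had its highest theca signals on the same 2 arrays, 1633 and 4279, against 21.9 and 52.8 in small theca. Of the 8 granulosa markers 1 was higher in large than in small theca (limma adjusted p = 0.00199). It was INHBA, which encodes an activin and inhibin subunit, at 2622 and 5756 against 171 and 135. That call was lost without theca large replicate 2 and with only the theca arrays. The other 7 granulosa markers were not called between large and small theca. Their differences were -1.36 for KRT18, -1.02 for AMH, -0.36 for CDH2, 0.03 for FSHR, 0.08 for KRT8, 0.21 for GJA1 and 1.78 for FOXL2. The signals of FOXL2 were 3.7 and 1.4 in small theca, 38.2 and 58.4 in large theca and 8.6 to 207.9 in granulosa. KRT18 and AMH were also lower in large than in small granulosa, KRT18 at 1425 and 1019 against 5964 and 4945, AMH at 250 and 122 against 428 and 861. The part of granulosa cells in the theca signals was not tested.

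The summed endothelial signal was 293.5 to 593.9 in large theca, below the 756.4 to 1061 of small and medium theca. That of smooth muscle was 10514 to 12346 in small, 14283 to 16426 in medium and 15453 to 20430 in large theca. No marker of these 2 lists was called between theca sizes, and their part in the differences of HSD3B1 and HSD17B1 was not tested.

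In granulosa the size changes of HSD17B1 were -0.57 for medium minus small, -0.02 for large minus medium and -0.59 for large minus small, each with a standard error of 0.66. CYP19A1 in the same layer was 113 and 126 in small, 3114 and 1820 in medium and 3134 and 1821 in large follicles. Its large minus small difference of 4.15 ± 0.63 was called (limma adjusted p = 0.00581), and was lost without granulosa large replicate 1 (limma adjusted p = 0.103) or either small granulosa array.

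Follicle size moved none of the 5 transcripts past the threshold. In large against small granulosa 0 of 5 were called by limma and 1 had an unadjusted p under 0.05, against 2.16% and 14.3% of all tested probe sets. In large against small theca 0 of 5 were called and 3 had an unadjusted p under 0.05, CYP11A1, HSD3B1 and HSD17B1, against 0.0343% and 10.1% of all tested probe sets. Over all probe sets 6 were called, 591 without theca small replicate 2 and 0 without theca large replicate 2. The arrays did not overlap for the same 3 transcripts, as for 40.8% of all. Between large and medium theca 0 of 5 were called (0% of all tested), 2 had an unadjusted p under 0.05 (3.07% of all) and 3 did not overlap (39.7% of all).

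Between medium and small follicles 0 of 5 transcripts were called or had an unadjusted p under 0.05 in either layer. The called shares of all tested probe sets were 0.00572% in granulosa and 0.0114% in theca, and the shares with an unadjusted p under 0.05 were 3.32% and 6.09%. Between large and medium granulosa the same counts were 0 and 0, against 0.664% and 11.6%, and 0 were without overlap, against 38.3%. The calls behind the 0.664% were also all lost without granulosa large replicate 1. The median of the 5 in large minus small theca was 0.67, with that of all tested probe sets at -0.04. In large minus small granulosa these medians were 0.23 and 0.04. The comparisons within a layer share arrays and are not independent of each other.

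**Figure D3:**
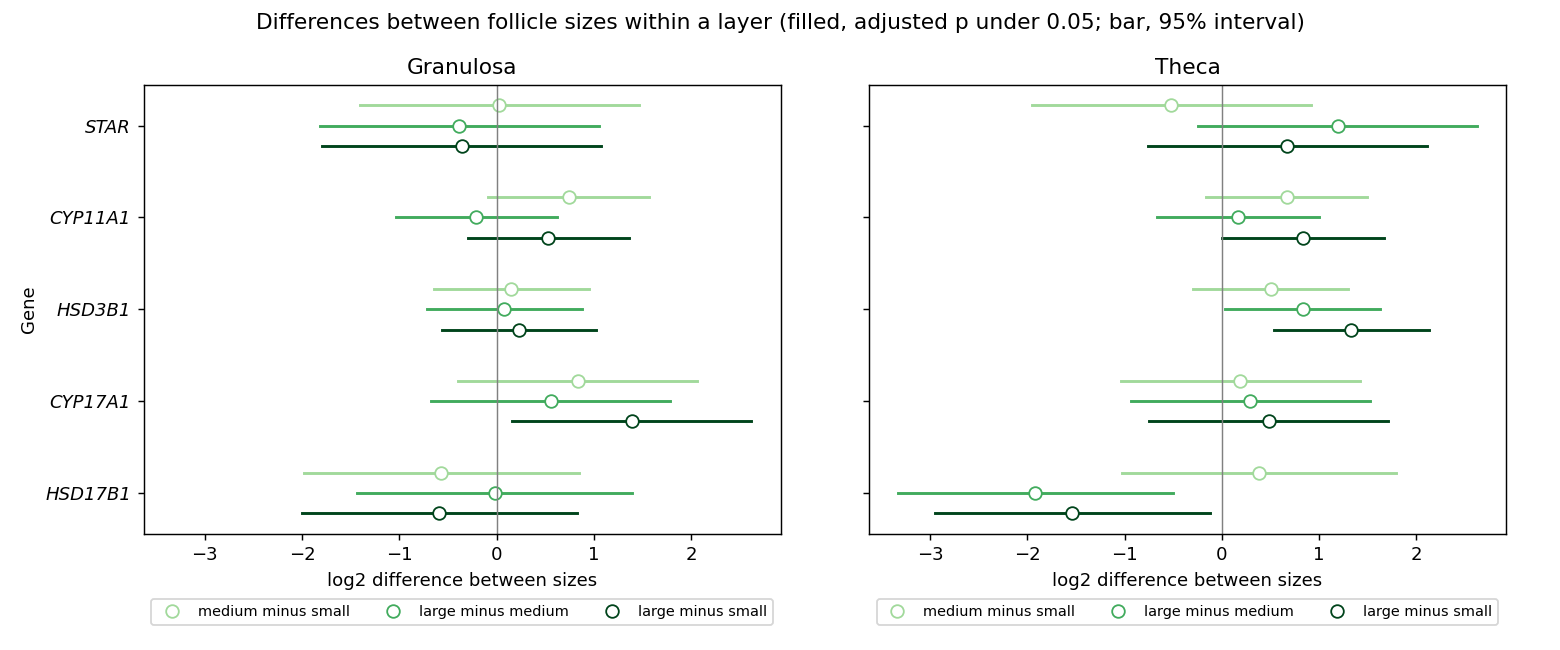
Log2 difference between follicle sizes with its 95% interval for the 5 transcripts, in granulosa (left) and theca (right); no point is filled, as none had a limma adjusted p under 0.05. In theca HSD3B1 lies at 1.33 and HSD17B1 at -1.54 for large minus small, with intervals that do not cover 0.

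Whether a size change differed between the layers was tested directly. For large minus small, granulosa minus theca, the estimates were -1.02 ± 0.95 for STAR, -0.30 ± 0.55 for CYP11A1, -1.10 ± 0.52 for HSD3B1, 0.91 ± 0.81 for CYP17A1 and 0.95 ± 0.93 for HSD17B1. With single arrays left out they ran from -2.05 to -0.0012 for STAR, -0.78 to 0.18 for CYP11A1, -1.49 to -0.71 for HSD3B1, -0.033 to 1.85 for CYP17A1 and 0.18 to 1.72 for HSD17B1. None of the 5 was called by limma or had an unadjusted p under 0.05, where 0.0114% and 10.5% of all tested probe sets did. For medium minus small and for large minus medium 0 of 5 were called too, against 0% and 0.0229% of all, and 0 had an unadjusted p under 0.05, against 2.47% and 7.42%. With standard errors of 0.52 to 0.95 such a comparison resolves only large differences.

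In every group except small granulosa the 2 arrays lay further apart in these transcripts, by their median, than in the median tested probe set. The median gap between replicates of the 5, on the log2 scale, was 0.86 in medium granulosa, 0.96 in large granulosa, 0.78 in small theca and 0.77 in large theca. Over all tested probe sets the gaps were 0.40, 0.44, 0.50 and 0.26. In small granulosa (0.38 against 0.41) and medium theca (0.28 against 0.26) they were close. STAR and HSD17B1 leaned to opposite arrays, the same replicate being the higher for both in 1 of 6 groups, small theca. STAR and CYP17A1 leaned to the same array in 5 of 6 groups, as did CYP11A1 and CYP17A1. In small theca all 5 transcripts were higher on replicate 1, the array with the high GAPDH ratio.

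**Figure D4:**
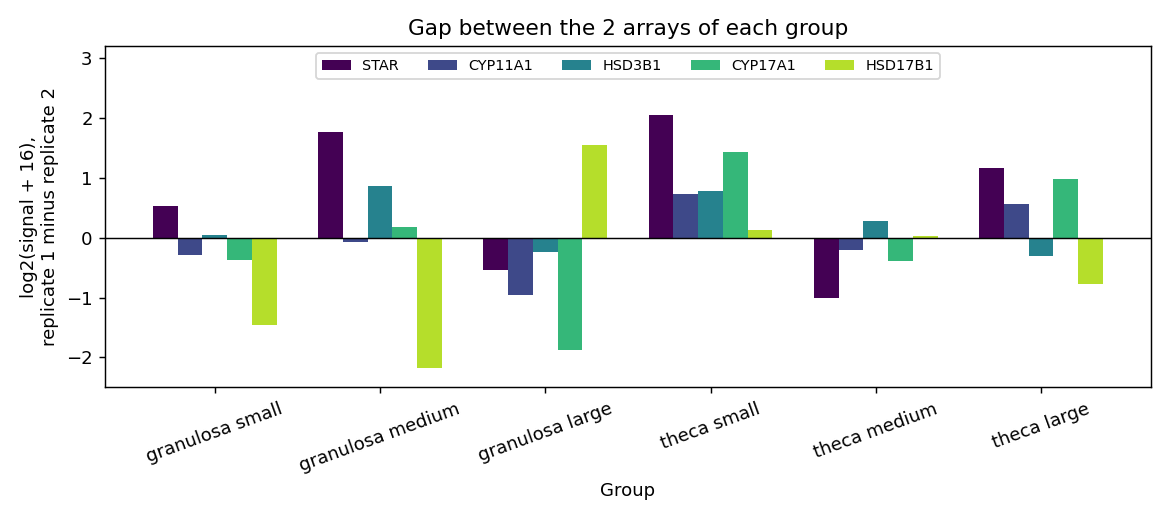
Replicate 1 minus replicate 2 on the log2(signal + 16) scale for the 5 transcripts in the 6 groups. STAR reaches 2.05 in small theca and 1.76 in medium granulosa, where HSD17B1 is at -2.18.

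The partners of these enzymes were followed in 6 lists of 66 genes, of which 50 had a probe set and 46 were tested. Over all sizes 11 of the 46 were higher and 8 lower in granulosa, their median being 0.03. Of all tested probe sets 13.2% and 11% were called in those directions. Of the 19 calls 15 held with any 1 array left out. In small follicles 5 were higher (NPC1, NR5A2, FOXL2, ESR2 and INSR) and 5 lower (FDX1, CYB5R3, CYP21A2, NR0B1 and NR2F2), against 3.97% and 4.98% of all tested probe sets. Of these CYP21A2 passed the signal filter only through small theca. In medium follicles 6 were higher (NPC1, SOAT1, CYP19A1, NR5A2, INSR and IGF1R) and 3 lower (FDX1, CYB5R3 and NR2F2), against 1.71% and 4.09%. In large follicles NR5A2 was higher and 5 were lower (SCARB1, FDX1, CYB5R3, HSD17B4 and NR2F2), against 1.91% and 2.34%.

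The calls within a size leaned on single arrays. The 10 calls in small follicles became 4 or 5 when granulosa small replicate 1 or replicate 2 was left out, and 3 when theca small replicate 1 was. The 9 in medium follicles became 3 when replicate 2 of either layer was left out. The 6 in large follicles became 1 without granulosa large replicate 1, 1 without theca large replicate 1 and 2 without theca large replicate 2. With any 1 array left out 3, 3 and 1 of them held.

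Of 6 genes of mitochondrial import and electron transfer 2 were called over all sizes, of 6 microsomal electron carriers 3 and of 6 cholesterol supply genes 3, beside 24.3% of all tested probe sets. FDX1, the ferredoxin that hands electrons to CYP11A1, was at 598 to 1064 in granulosa and 2143 to 3265 in theca. It was lower in granulosa, at a difference of -1.62 ± 0.18 over all sizes (limma adjusted p = 2.59e-05). TSPO, a protein of the outer mitochondrial membrane that binds cholesterol, was higher (1.14), and the other 4 genes of that list were not called. CYB5R3, the cytochrome b5 reductase, was lower in granulosa (-1.94). POR, which feeds electrons to CYP17A1 and aromatase, was higher (0.83), as was CYB5B (0.63), and these last 2 calls were lost in 4 and 8 of the 12 fits that left out 1 array. For both the limma adjusted p was highest without theca medium replicate 2, at 0.0818 and 0.109. CYB5A, which favours the lyase reaction of CYP17A1, gave -0.62 ± 0.26 (limma adjusted p = 0.0903).

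Among the cholesterol supply genes SCARB1, the receptor for high density lipoprotein, was lower in granulosa (-1.23 ± 0.25, limma adjusted p = 0.00321). NPC1, which moves cholesterol out of lysosomes, was higher (1.13), and so was the lysosomal lipase LIPA (0.79), a call lost in 7 of the 12 fits with 1 array left out (limma adjusted p up to 0.114, without theca large replicate 2). Of 8 other steroid enzymes CYP19A1 was higher (1.25, limma adjusted p = 0.0229), a call lost in 6 of the 12 fits with 1 array left out (limma adjusted p up to 0.0736, without theca large replicate 1). HSD17B4 (-0.80), a peroxisomal enzyme that oxidises oestradiol, and CYP21A2 (-0.75), the hydroxylase of corticosteroid synthesis, were lower. These calls, 1 higher and 2 lower of the 8, stood beside 24.3% called among all tested probe sets. CYP21A2 lay near the floor, at 2.6 to 9.8 in granulosa and 12 to 34.4 in theca. Only in small theca (24.5 and 34.4) was its mean over the 22.5 of the filter, so it was tested through that group alone.

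Of 11 regulators 1 was higher and 2 were lower in granulosa, which sits near the 24.3% called among all tested probe sets. NR5A2, a nuclear receptor that activates steroid enzyme genes, was higher in granulosa (2.45 ± 0.26, limma adjusted p = 1.65e-05), at 488 to 831 against 33.4 to 291 in theca. Its relative NR5A1 gave -0.28 (limma adjusted p = 0.432). NR2F2 (-3.27) and NR0B1 (-1.04), which can repress such genes, were lower in granulosa. The signals of NR0B1 were 7.4 to 30.9 in granulosa, near the 22.5 of the filter, and 41.5 to 73.3 in theca. Of 9 receptor and cAMP genes 5 were called: FSHR (1.86), the insulin receptor INSR (1.74), IGF1R (1.53) and the oestrogen receptor ESR2 (1.13) were higher, and LHCGR, the receptor for luteinising hormone, was lower (-1.12). Between sizes 3 partner calls were made in all, 2 in granulosa and 1 in theca, each in large against small follicles. Of all tested probe sets 2.16% and 0.0343% were called there. CYP19A1 was higher in large than in small follicles in granulosa and in theca (5.70, limma adjusted p = 0.00199). The theca call was lost without theca large replicate 2, without both arrays that stood apart and with only the theca arrays (limma adjusted p = 0.189). INSR was lower in large than in small granulosa (-1.81, limma adjusted p = 0.0419). That call held in only 4 of the 12 fits that left out 1 array. Any small or large granulosa array, and any medium or large theca array, lost it when left out. It was also lost with only the granulosa arrays (limma adjusted p = 0.0723).

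**Figure D5:**
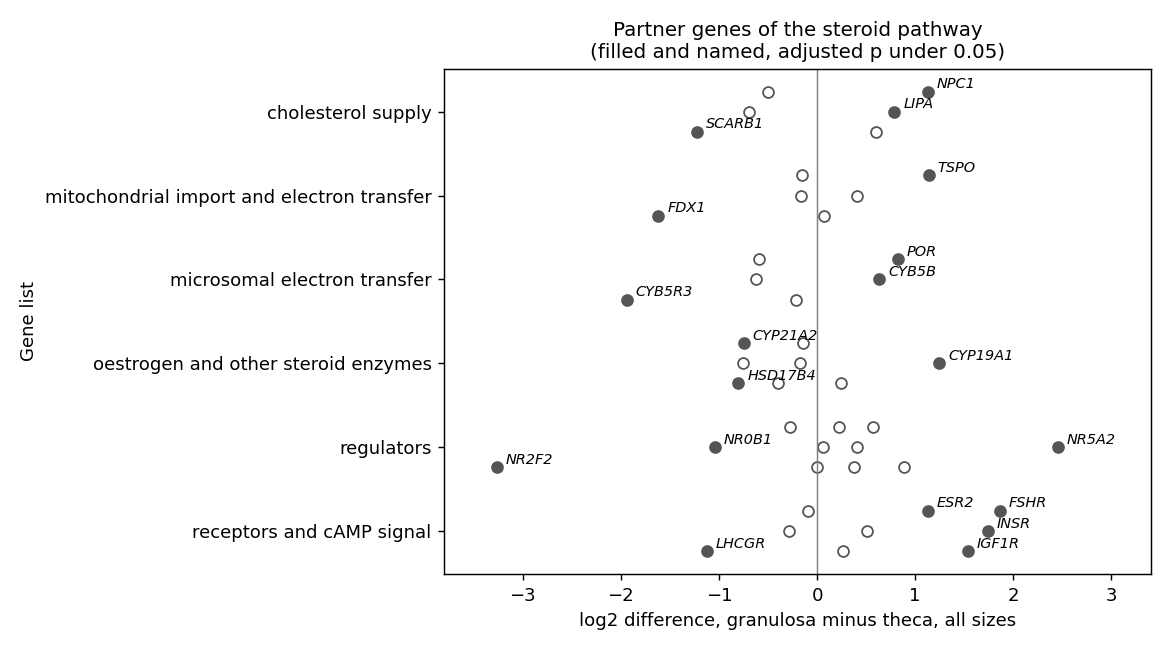
Log2 difference of granulosa minus theca over all sizes for the 46 tested partner genes, by list; filled and named points have a limma adjusted p under 0.05. The 19 named genes fall on both sides of 0, from NR2F2 at -3.27 to NR5A2 at 2.45.

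The genes most like each transcript over the 12 arrays, among 7937 other tested genes, were found by Pearson correlation of the log2 values, given as a description since arrays of a layer share much of their variation. For CYP17A1 they were IGFBP6 (0.98), FRZB (0.98) and DHRS7 (0.98), with 0.60, 0.39 and 0.56 within the 6 granulosa arrays and 0.72, 0.89 and 0.90 within the 6 theca arrays. For HSD17B1 they were CPSF4 (0.93), SYP (0.92) and POC1A (0.91), with 0.92 to 0.94 within granulosa and 0.82 to 0.86 within theca. For STAR they were ARMC2 (0.81), LIN52 (0.76) and GPR161 (0.74), for CYP11A1 SSR3 (0.90), MR1 (0.86) and MYO19 (0.81), and for HSD3B1 P2RX4 (0.88), FAM50A (0.86) and LOC767968 (0.86).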

How the data were processed

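Affymetrix bovine arrays of biotin-labelled total RNA were used, per the labels. The deposited values were linear signal intensities, 1 per probe set and array, which the authors had scaled to a 2% trimmed mean of 125.03 to 125.04. The scaling software is not given in the sources used here. Groups came from the sample titles, and 0 columns stayed unmapped. The description field names theca for all 12 samples, against titles and source names. Replicate arrays shared 0.325% to 0.641% identical values. After 112 control probe sets were left out, a probe set was tested where any group's mean signal was over 22.5, which is the 40th percentile of the table. Values of log2(signal + 16) were fitted with limma 3.58.1 in R 4.3.3 with 1 mean per group (6 residual and 7.98 prior degrees of freedom), in 13 contrasts, and tested on simulated data. Array medians spanned 0.383 on the log2 scale, under the limit of 0.5, so the deposited scale was kept. The number of arrays limits the precision; an exact permutation test of 2 against 2 cannot give a p below 0.333. The brightest probe set stood for a partner gene, and FDXR was not analysed here. All 5 members were followed in every contrast, and the layer differences in the medium minus small and large minus medium changes were given as counts only. Named too were the called members of the 6 partner lists, up to 4 per list, and 10 fixed partners. Genes most like a member were the 3 with the highest correlation. Members and lists were chosen with earlier results of these data known. Alternatives were offsets, filters, quantile normalization, limma-trend, separate fits, a replicate block and left-out arrays. Figures were drawn with matplotlib 3.10.9 in Python 3.11.15.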

Additional observations from a re-analysis of the deposited data

How the results depend on the processing

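The count of the 5 transcripts called between the layers stayed at 2 over all sizes and at 1 in medium follicles under every alternative run. In small follicles it was 1, and 2 with only that size's arrays. In large follicles it was 2, and 1 with log2(signal + 1), with log2(signal + 64), with no filter and without both arrays that stood apart. Leaving out single arrays gave 1 to 2 in each of these sizes. HSD17B1 made each of these moves: its large follicle difference had a limma adjusted p of 0.0889, 0.0641, 0.0534 and 0.173 in those fits. CYP17A1 was called in all 4 layer comparisons under every alternative run. No transcript was called between sizes under any. Of 1145 results by setting for single transcripts, 1087 kept direction and side of the threshold, 7 lost a call, 3 gained one and 48 changed sign, none of the last a called result.

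Partner calls in small follicles were 6 without both arrays. In large follicles they were 1 with log2(signal + 1), 1 with only that size's arrays and 2 without both arrays. Leaving out single arrays gave 3 to 11 in small, 3 to 10 in medium and 1 to 7 in large follicles, and 15 to 22 over all sizes. Partner counts were added as results after seeing the data.

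Sign changes were as follows, the causes not tested. With quantile normalization granulosa minus theca in small follicles was 0.0698 for STAR and 0.025 for CYP11A1, and granulosa medium minus small was -0.0199 for STAR. Without both arrays granulosa minus theca was 0.25 for STAR and 0.15 for CYP11A1 over all sizes, 1.0 and 0.31 in small follicles and 0.13 for CYP11A1 in large follicles, granulosa large minus medium was 0.27 for CYP11A1, and theca medium minus small was 0.50 for STAR. With single arrays left out, STAR ranged over -0.52 to 0.16 (layers, all sizes), -1.05 to 1.0 (small), -0.36 to 1.40 (medium), -0.85 to 0.91 (granulosa, medium minus small), -1.26 to 0.50 (granulosa, large minus medium), -1.54 to 0.50 (theca, medium minus small) and -0.35 to 1.69 (theca, large minus small). CYP11A1 ranged over -0.29 to 0.035 (layers, all sizes), -0.41 to 0.31 (small), -0.080 to 0.13 (medium), -0.83 to 0.13 (large), -0.69 to 0.27 (granulosa, large minus medium), -0.12 to 0.45 (theca, large minus medium) and -0.78 to 0.18 (layer difference, large minus small). HSD3B1 ranged over -0.27 to 0.58 and -0.35 to 0.50 in granulosa for medium minus small and large minus medium. CYP17A1 ranged over -0.38 to 1.5 (granulosa, large minus medium), -0.53 to 0.91, -0.19 to 0.78 and -0.24 to 1.20 (theca, medium minus small, large minus medium and large minus small) and -0.033 to 1.85 (layer difference, large minus small). HSD17B1 ranged over -0.13 to 2.05 (layers, medium), -1.66 to 0.52, -1.11 to 1.07 and -1.36 to 0.18 (granulosa, medium minus small, large minus medium and large minus small).

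The mean of several probe sets was not run, since each transcript had 1. The replicate number as a block changed no count of the 5 called, and 2 were called over all sizes with it. Deviations of same-numbered arrays correlated at -0.330 to 0.398 over 15 pairs of groups, and the labels do not say that numbers pair samples. With 2 arrays per group the standard errors of size differences were 0.37 to 0.67, which limits what could be resolved.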
